A study of Mus musculus with 13 samples.

Results

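The Notch pathway genes described here are 3 ligands (Jag1, Jag2 and Dll1), 3 receptors (Notch1, Notch2 and Notch3) and 4 target genes (Hes1, Hey1, Hey2 and Heyl), which make up 10 of the 49585 genes summed from the libraries. They were chosen by name, and estimates for their transcripts were given in all 13 libraries. Ovaries of P5 CD-1 mice were cultured and irradiated from a caesium source at a dose of either 0.2 or 0.5 Gy, and oocytes were isolated at 5 time points (0 h, 1 h, 2.5 h, 4 h and 6 h) by trypsin treatment and repeated centrifugation, with 4 ovaries for each time point. The 0.5 Gy series held 8 libraries, with 2 at each of 0, 1 and 4 h and 1 at each of 2.5 and 6 h, and the 0.2 Gy series held 1 library for each of the 5 time points. The labels give no altered allele and no agent other than the irradiation in any group, and the 0 h libraries, described by the study as taken before irradiation, served as controls.

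Notch signaling works between cells that touch. A ligand of the Jagged or Delta family on the surface of a cell binds a Notch receptor on its neighbor, proteases then cut the receptor, and the freed intracellular part enters the nucleus, where it joins the DNA-binding protein RBPJ and switches on genes of the Hes and Hey families. In the young mouse ovary, Jag1 is known as a ligand made by the oocyte, and Notch2 as the main receptor of the surrounding pregranulosa cells, and this contact takes part in the breakdown of germ cell nests and the formation of primordial follicles. Jag2 is also known as a target of p63, the p53 family member whose TA form responds to DNA double-strand breaks in oocytes.

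Jag1 and Jag2 are paralogs on different chromosomes, and the 30-base reads had to tell them apart. In GRCm38 (GENCODE annotation), Jag1 lies on the minus strand of chromosome 2 from 137081456 to 137116644, and Jag2 on the minus strand of chromosome 12 from 112907819 to 112929776. The stretch of 50 codons in which the main coding transcripts of both genes share the most residues follows here, read from the GENCODE transcript sequences, to show how the bases of the pair differ where the residues are most alike. It runs from coding base 2368 to 2517 in Jag1 and from 2389 to 2538 in Jag2, counted from the first base of the start codon, and capitals mark the bases at which both differ.
Jag1: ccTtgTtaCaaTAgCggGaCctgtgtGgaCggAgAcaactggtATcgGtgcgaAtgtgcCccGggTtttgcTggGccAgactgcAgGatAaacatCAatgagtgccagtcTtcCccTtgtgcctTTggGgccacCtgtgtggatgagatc
Jag2: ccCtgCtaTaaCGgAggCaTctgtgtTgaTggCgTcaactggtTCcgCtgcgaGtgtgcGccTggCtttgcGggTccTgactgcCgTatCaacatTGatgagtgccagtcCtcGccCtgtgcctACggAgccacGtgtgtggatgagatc

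In this stretch 44 of 50 codons encoded the same residue, while 34 of 150 bases differed, 27 of them at the last position of a codon. The longest run of identical bases in it was 15, which is shorter than a read of 30 bases. Over all their transcripts, 0.0172% of the 30-base sequences of Jag1 and 0.0705% of those of Jag2 occurred in any other gene. The base composition of the pair differed as well, since the main transcript of Jag1 held 48.8% G and C and that of Jag2 61.9%. This difference may bear on the measurements, because the levels of genes of high and low GC content differed between libraries, as described with the comparisons. The cause of that difference between libraries was not tested.

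Hey2 encodes a bHLH repressor that Notch signaling induces, and it lies on the minus strand of chromosome 10 from 30832359 to 30842801. It is shown here because only its promoter window, of those given for these genes, held the RBPJ core letters TGGGAA on either strand. The sequence is the RefSeq promoter table's stretch upstream of the start of the main transcript (GRCm38.p6, chr10:30842802-30843033, minus strand, 232 bases), with the match in capitals in its reverse-complement form.
Hey2: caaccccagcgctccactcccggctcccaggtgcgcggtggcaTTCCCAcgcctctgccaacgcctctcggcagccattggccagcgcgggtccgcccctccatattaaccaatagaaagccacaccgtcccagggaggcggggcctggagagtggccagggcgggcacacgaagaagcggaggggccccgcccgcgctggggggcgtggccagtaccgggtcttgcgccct

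The match begins 207 bases before the RefSeq start, and a further match in the same window begins 3 bases before it. RefSeq windows of 300 bases, from 250 bases before each start, were given for 7 of the 10 genes, in 8 windows. None was given for Hes1, Hey1 and Heyl, so the target genes other than Hey2 were not searched. The letters TGGGAA occurred on either strand in 25.6% of the 32851 windows of all genes, so 1 of 8 windows is no more than a description. The core of the half-site bound by p53 family members (CAAG or CATG or CTAG or CTTG) occurred in 98.0% of all windows, and a pair of such cores with 6 bases between them, the spacing of a full site, occurred in 7.22% of all windows and in 0 of these 8. The window of Jag2 held no half-site core and was 86.0% G and C, against a median of 52.7% over all windows, and it lay within the main Jag2 transcript, downstream of its annotated start.

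The salmon estimates summed to between 15709549 reads, in replicate 2 of 0 h at 0.5 Gy, and 30430104 reads per library. Each value is given in CPM, the reads of a gene scaled to a common library size with TMM normalization, which compares a gene between libraries but not genes of different length with each other. The sample labels place replicate 1 of 0.5 Gy in the first generation, replicate 2 with the 2.5 and 6 h libraries in the second, and all libraries of 0.2 Gy in the third, so that dose and generation cannot be told apart. Markers of the other cells of the ovary were present throughout. None of 12 oocyte, 12 granulosa, 7 stroma and theca, 7 mural or 7 endothelial markers was at 0 in any library. At 0.5 Gy the summed granulosa markers ranged from 1492 to 2122 CPM early (0 and 1 h) and from 1629 to 2216 CPM late (2.5, 4 and 6 h). The summed oocyte markers ranged from 3709 to 5092 CPM early and from 3997 to 4786 CPM late. Those of stroma and theca ranged from 2513 to 3470 CPM early and from 2148 to 2864 CPM late. Endothelial markers summed to 116 to 167 CPM early and 84.3 to 159 CPM late. The preparations were therefore bulk samples in which fewer cells of a type and less RNA per cell cannot be told apart. Ligand, receptor and target RNA alike cannot be assigned to oocytes. As a check of the response to irradiation, Cdkn1a, the cell cycle inhibitor p21 and a target of p53 and p63, averaged 6.33 ± 3.45 CPM (SD, n = 4 libraries) early and 63.6 ± 19.4 CPM (n = 4) late at 0.5 Gy, and it was called in edgeR's quasi-likelihood test (log2 fold change 3.32, SE 0.36, adjusted p = 0.00362).

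Levels per length were compared on the TPM of the main coding transcript, as the authors estimated it with salmon. Hes1, a target gene encoding a bHLH repressor, was the most abundant member, with a median of 18.2 TPM over 13 libraries and a range from 13.5 to 25.5 TPM. It exceeded the next gene, Hey1 (median 6.94 TPM, 3.52 to 11.7), in 13 of 13 libraries without overlap of the ranges. The order then ran through Notch2 (median 6.50 TPM), Heyl (6.02 TPM), Jag1 (5.05 TPM) and Hey2 (4.20 TPM). These 5 genes, from Hey1 to Hey2, had overlapping ranges, and Notch2 was above Heyl in 5 of 13 libraries, so their order is not set by these data. A gap followed, because Jag2 (median 1.18 TPM, 0.912 to 1.89) lay below Hey2 in 13 of 13 libraries with no overlap. Notch1 (0.558 TPM) and Notch3 (0.382 TPM) came next, and Dll1 was lowest, with a median of 0.0987 TPM and a range from 0.0409 to 0.298 TPM. Among the ligands Jag1 was thus the most abundant and among the receptors Notch2, while Notch1 lay above Notch3 in 10 of 13 libraries.

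**Figure D1:**
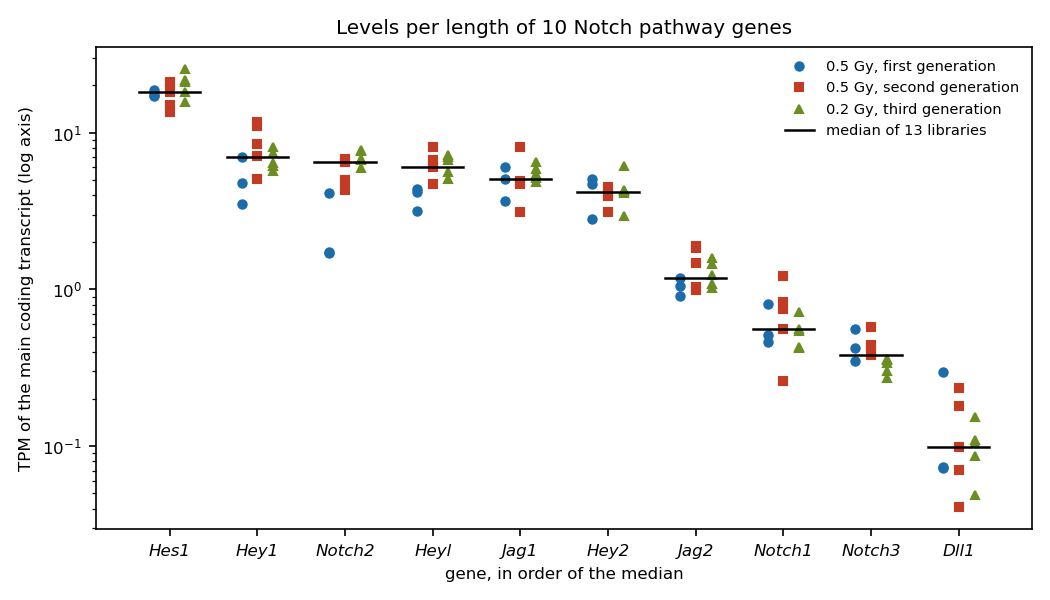
TPM of the main coding transcript (log axis) of each gene in each of the 13 libraries, with circles for the first generation at 0.5 Gy, squares for the second generation at 0.5 Gy, triangles for 0.2 Gy and a bar at the median of all libraries. Hes1 stands above all other genes at a median of 18.2 TPM, Hey1 to Hey2 overlap, and Jag2, Notch1, Notch3 and Dll1 follow at lower levels, down to a median of 0.0987 TPM for Dll1.

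The main comparison asked whether these genes differed between the late (2.5, 4 and 6 h) and early (0 and 1 h) libraries of 0.5 Gy, since the study places the change of the transcriptome at 2.5 h. Each side mixes time points, so its libraries do not replicate 1 condition, and the p-values measure only the spread between these libraries. With edgeR's quasi-likelihood test, 0 of 10 genes met the call, which asked for an adjusted p under 0.05 together with a log2 fold change beyond 1 in either direction, against 29 of 22588 genes tested, all of them higher, which is 0.128%. At an unadjusted p under 0.05 there were 5 of 10 members, 2 higher (Jag2 and Notch1) and 3 lower (Jag1, Dll1 and Hey2), against 2046 of all genes, or 9.06%. The median log2 fold change of the 10 genes was −0.12, against −0.02 for all genes tested. With the generation as a block, the calls over all genes went from 29 to 18, and again no member was among them. The late libraries all lay above the early ones for 1 member, Notch1, which 3.17% of all genes did too, and all lay below for 0 members, against 2.18% of all genes.

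Jag1 was the more abundant Jagged ligand and had a lower mean in the late libraries. At 0.5 Gy its level was 106 and 130.0 CPM at 0 h in replicates 1 and 2, 111 and 85.1 CPM at 1 h, 78.7 CPM at 2.5 h, 67.5 and 88.5 CPM at 4 h, and 53.0 CPM at 6 h. At 0.2 Gy it was 93.8, 101, 98.8, 109 and 93.0 CPM in order of time. The 6 h library of 0.5 Gy was the lowest of all 13, while replicate 2 of 1 h lay below replicate 2 of 4 h, so that the early and late ranges overlapped. The late mean was 71.9 ± 15.3 CPM and the early mean 108 ± 18.5 CPM (SD, n = 4 each), a ratio of 0.666. The log2 fold change was −0.58 (SE 0.20), with an unadjusted p of 0.0117 and an adjusted p of 0.437 in edgeR's test. It lay between −0.70 and −0.45 in all 21 alternatives and was −0.58 after correction for GC content. Of the time points against 0 h, the 6 h library differed most, by −1.12 (SE 0.37, edgeR adjusted p = 0.776).

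Jag2, the Jagged ligand listed as a p63 target, had a higher mean in the late libraries, with the difference in the second generation. Its level at 0.5 Gy was 13.2 and 10.7 CPM at 0 h, 15.1 and 14.9 CPM at 1 h, 24.2 CPM at 2.5 h, 14.7 and 25.5 CPM at 4 h, and 30.4 CPM at 6 h, from 157 to 806 estimated reads. At 0.2 Gy it was 14.3, 19.1, 19.3, 21.4 and 13.8 CPM in order of time. The 3 late libraries of the second generation lay above all early libraries, whereas the single late library of the first generation, at 4 h, stayed within the early range. Within the second generation alone, 14.4% of all genes had every late library above the early ones. The means were 13.5 ± 2.04 CPM early and 23.7 ± 6.54 CPM late (SD, n = 4 each), a ratio of 1.76. The log2 fold change was 0.81 (SE 0.24, unadjusted p = 0.00594, edgeR adjusted p = 0.360). Within the second generation alone it was 1.07, and within the first, with 1 late library, 0.05. After correction for GC content it was 0.58 (SE 0.20), and its adjusted p over the alternatives ran from 0.0759 to 0.984. Against 0 h the differences were 1.09 at 2.5 h (SE 0.44, adjusted p = 0.875) and 1.38 at 6 h (SE 0.44, adjusted p = 0.761) in edgeR's test, and they were 0.56 and 0.93 after the GC correction. The main coding transcript held between 80.2% and 99.2% of the reads of Jag2, and on that transcript alone the late difference was 0.69.

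Dll1, a Delta ligand, was close to the limit of these libraries. It had between 13 and 94 estimated reads per library, which is 0.793 and 3.20 CPM at 0 h, 3.69 and 2.54 CPM at 1 h, 1.23 CPM at 2.5 h, 1.08 and 1.24 CPM at 4 h and 0.490 CPM at 6 h of 0.5 Gy. At 0.2 Gy the levels in order of time were 1.02, 0.523, 1.96, 1.45 and 1.66 CPM. Replicate 1 of 0 h, at 0.793 CPM, lay below 3 of the late libraries, and the other 3 early libraries lay above all late ones. The log2 fold change was −1.33 (SE 0.53, unadjusted p = 0.0267, edgeR adjusted p = 0.491), and the ratio of the means was 0.395. Of the 30-base sequences of Dll1, 18.0% also occurred in A930024N18Rik, a lincRNA on the opposite strand, and with no strand information in the sources used here reads of that region cannot be assigned to either gene.

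**Figure D2:**
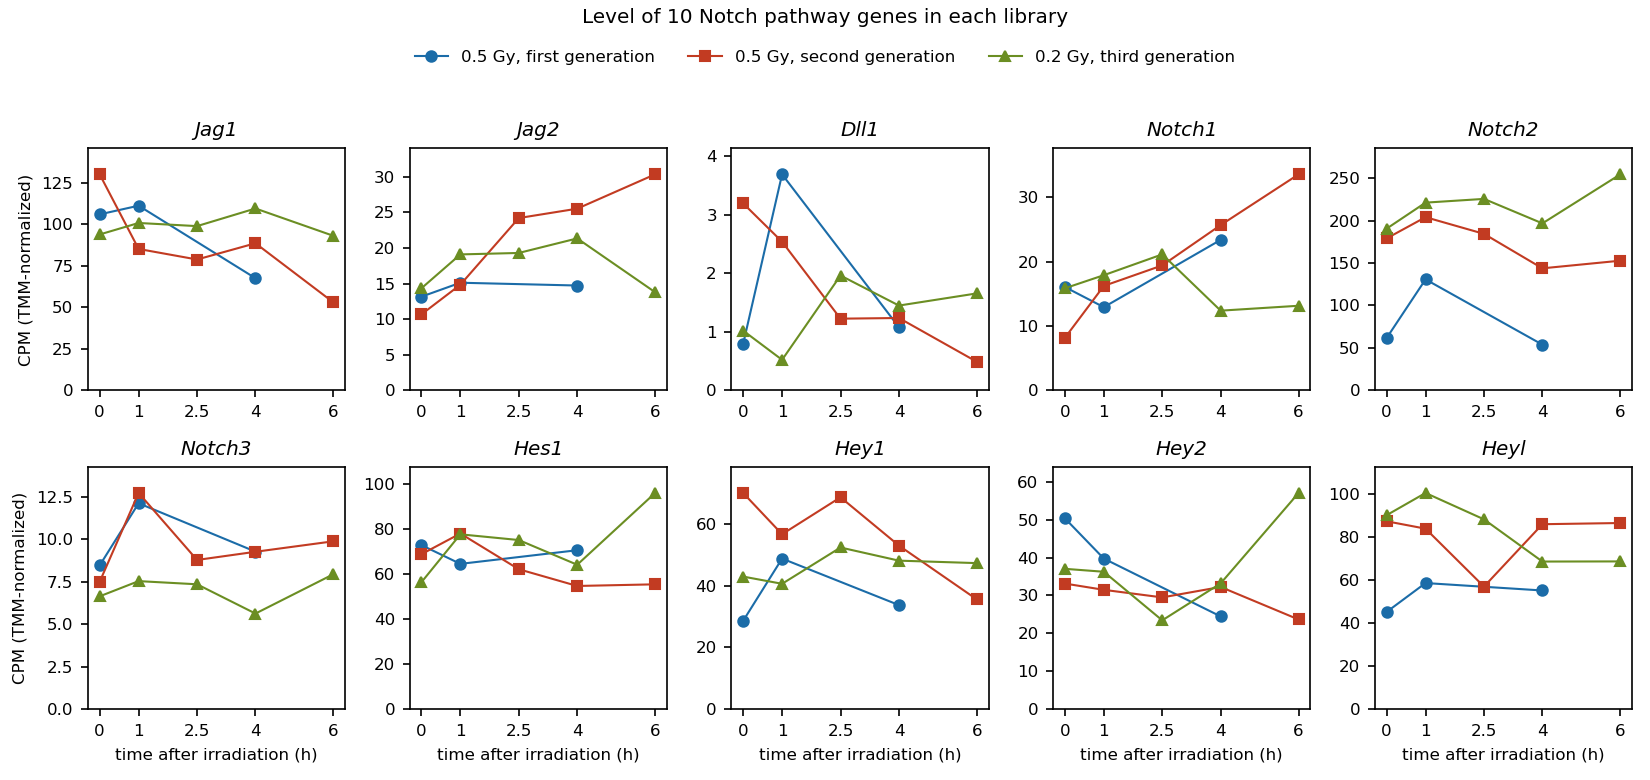
TMM-normalized CPM of each of the 10 genes (vertical axes from 0, scaled per gene) against the hours after irradiation, with 1 point per library, circles for the first generation and squares for the second at 0.5 Gy, and triangles for 0.2 Gy. Notch1 ends at 33.6 CPM and Jag2 at 30.4 CPM in the 6 h library of 0.5 Gy, where Jag1 is at its lowest, 53.0 CPM, and the first generation of Notch2 lies below the other libraries at 0, 1 and 4 h.

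Notch1, a receptor with broad roles in cell fate and in the vasculature, showed the smallest p of the 10 genes. It lies on the minus strand of chromosome 2 from 26457903 to 26516663. At 0.5 Gy it was measured at 16.1 and 8.16 CPM at 0 h, 12.9 and 16.2 CPM at 1 h, 19.4 CPM at 2.5 h, 23.4 and 25.7 CPM at 4 h, and 33.6 CPM at 6 h. The levels at 0.2 Gy were 15.9, 17.9, 21.1, 12.4 and 13.2 CPM in order of time. All 4 late libraries of 0.5 Gy, of both generations, lay above all 4 early ones, and at 0.2 Gy the 4 and 6 h libraries lay below those of 0 and 1 h. The 0.5 Gy means were 13.3 ± 3.77 CPM early and 25.5 ± 5.96 CPM late (SD, n = 4 each), a ratio of 1.91. The log2 fold change was 0.93 (SE 0.26, unadjusted p = 0.00363, edgeR adjusted p = 0.315). It was 0.68 in the first generation alone, 1.10 in the second and 0.76 (SE 0.22) after correction for GC content. Against 0 h the difference was 1.06 at 4 h (SE 0.39, adjusted p = 0.837) and 1.49 at 6 h (SE 0.46, adjusted p = 0.739) in edgeR's test. The direction depended on how transcripts were summed. The main coding transcript, with 70.0% to 97.4% of the reads, gave a log2 fold change of 1.00, whereas TPM summed over 11 transcripts, in which a few reads on a short transcript weigh as much as many on the long one, gave −0.15. In addition, 9.44% of the 30-base sequences of Notch1 were shared with other genes, most with 0610009E02Rik on the opposite strand. For Notch3 the share was 6.78%, most with Gm17276 on the opposite strand, and for Notch2 4.31%, with Gm42820 on the same strand.

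Notch2, the receptor known from pregranulosa cells, showed its widest differences between the generations. It lies on the plus strand of chromosome 3 from 98013527 to 98150361. At 0.5 Gy its level was 61.6 and 179 CPM at 0 h, 131 and 204 CPM at 1 h, 184 CPM at 2.5 h, 53.9 and 144 CPM at 4 h, and 153 CPM at 6 h. At 0.2 Gy it was 190.4, 221, 225, 197 and 254 CPM in order of time. Replicate 2 was 2.90 times replicate 1 at 0 h, 1.56 times at 1 h and 2.67 times at 4 h, and all 5 libraries of the third generation lay above every library of the first. The late difference at 0.5 Gy was −0.10 (SE 0.39) without and −0.45 (SE 0.24, edgeR adjusted p = 0.621) with the generation as a block. Notch3, a receptor known from the mural cells of vessels, ranged from 7.48 to 12.7 CPM at 0.5 Gy and from 5.62 to 7.93 CPM at 0.2 Gy. Its 2 highest libraries were those of 1 h at 0.5 Gy, with 12.1 and 12.7 CPM, and its late difference was −0.14 (SE 0.25). The summed mural markers ranged from 210 to 267 CPM early and from 141 to 256 CPM late, and their part in the levels of Notch3 was not tested.

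The target genes are the usual readout of active Notch, and none of the 4 was called. Hes1 was 72.9 and 68.9 CPM at 0 h, 64.6 and 78.1 CPM at 1 h, 62.2 CPM at 2.5 h, 70.6 and 54.7 CPM at 4 h, and 55.5 CPM at 6 h of 0.5 Gy, and 56.4, 77.7, 75.2, 64.2 and 96.1 CPM in order of time at 0.2 Gy. In the second generation the 3 late libraries lay below both early ones, as they did for 13.9% of all genes, while in the first the 4 h library lay within the early range. Its late difference at 0.5 Gy, −0.23, had the smallest SE of the 10 genes, 0.15 (edgeR adjusted p = 0.682). Its highest value of all 13 libraries was at 6 h of 0.2 Gy.

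Hey2 was 50.4 and 33.1 CPM at 0 h, 39.7 and 31.5 CPM at 1 h, 29.5 CPM at 2.5 h, 24.5 and 32.2 CPM at 4 h, and 23.7 CPM at 6 h of 0.5 Gy. At 0.2 Gy it was 37.0, 36.3, 23.4, 33.2 and 57.1 CPM, with the 6 h library the highest of all 13. The late and early libraries of 0.5 Gy overlapped through replicate 2 of 4 h, at 32.2 CPM, and replicate 2 of 1 h, at 31.5 CPM. The log2 fold change was −0.49 (SE 0.20, unadjusted p = 0.0301, edgeR adjusted p = 0.500). It was −0.89 in the first generation alone, −0.17 in the second and −0.42 after correction for GC content. Hey1, the related repressor, ranged from 28.6 to 70.1 CPM at 0.5 Gy, with both of these libraries at 0 h, and from 40.7 to 52.4 CPM at 0.2 Gy. Heyl, a further member of the family, ranged from 45.2 to 87.4 CPM at 0.5 Gy, again between the replicates of 0 h, and from 68.7 to 101 CPM at 0.2 Gy. The late differences of 0.5 Gy were −0.09 (SE 0.29) for Hey1 and 0.05 (SE 0.24) for Heyl, each smaller than its error.

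**Figure D3:**
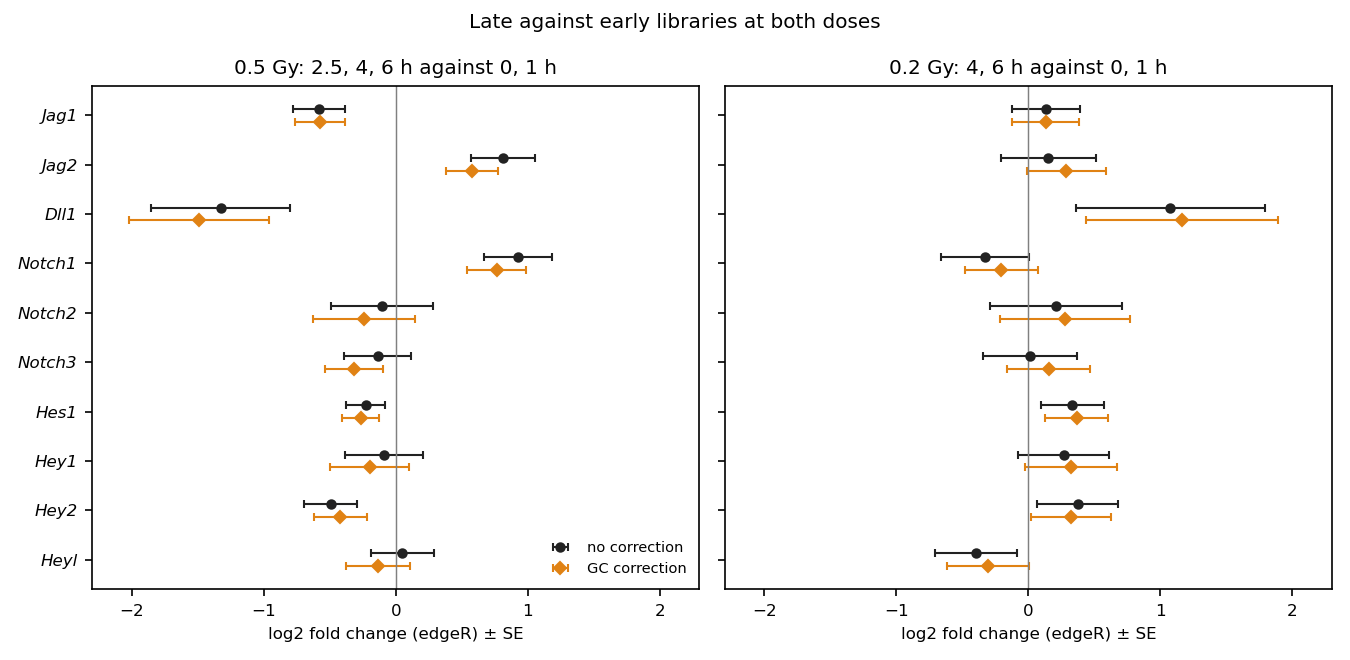
Log2 fold change with SE from edgeR for each gene, late against early, at 0.5 Gy on the left and 0.2 Gy on the right, without (circles) and with (diamonds) a correction for GC content. At 0.5 Gy Jag2 and Notch1 lie to the right of 0 (0.81 and 0.93, or 0.58 and 0.76 corrected) and Jag1, Dll1 and Hey2 to the left, and at 0.2 Gy the uncorrected bars of 6 genes reach past 0.

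Each time point was also compared with 0 h at 0.5 Gy, in a model of all 8 libraries in which the duplicates supply the spread for the single 2.5 and 6 h libraries. These comparisons share the 0 h libraries. The model had no block for the generation. It set the 2.5 and 6 h libraries, both of the second generation, against 0 h libraries of the first and second. With edgeR's quasi-likelihood test 0 of 10 members were called at 1, 2.5, 4 and 6 h, as were 0 of 28468 genes (0%) at every time point. Cdkn1a, the check of the response, was thus not called either, with a log2 fold change of 4.16 at 4 h (SE 0.48, edgeR adjusted p = 0.0874). The absence of calls in this test therefore does not show that no gene changed. At an unadjusted p under 0.05 there were 0, 1, 1 and 3 members at 1, 2.5, 4 and 6 h, against 1133, 1590, 1658 and 1691 of all genes. Those were Jag2 at 2.5 h, Notch1 at 4 h and Jag1, Jag2 and Notch1 at 6 h. Calls were also summed over the 4 time points, so that a gene called at several of them counts more than once. Blocking on generation gave 14 such calls, and 0 members. DESeq2 gave 378 calls and limma 6 in the same sum, and neither called a member here. The study, whose own DESeq2 analysis also set time points against 0 h, listed Jag2 among its differentially expressed genes.

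The libraries of 0.5 Gy differed in their levels of genes by GC content, and whether the cause was technical was not tested. Over 11281 genes, the log2 fold change late against early correlated with the GC content of the longest coding transcript at r = 0.415. Between the early time points, 1 h against 0 h, r was 0.455, so the trend did not only divide late from early libraries. These are correlations across genes, which are not independent and share the same 8 libraries. Late against early, genes under 40% GC had a median log2 fold change of −0.26 and those of 60% or more a median of 0.16. For 1 h against 0 h these medians were −0.17 and 0.46. Replicate 2 of 0 h stood furthest apart, with median deviations from 0.38 in the genes lowest in GC to −0.46 in those highest, and the 4 h library of the first generation also ran from 0.090 to −0.10, unlike the other late libraries. Among the members, Jag2 (61.9%), Notch3 (59.6%) and Notch1 (57.1%) were highest in GC, and Jag1 (48.8%) and Hey2 (45.9%) lowest. Genes of the GC class of Jag2 had a median late difference of 0.16 and those of the class of Notch1 0.21, against 0.81 and 0.93 for the genes themselves. Notch3, of the same class as Notch1, was at −0.14. At 0.2 Gy the late against early correlation was −0.206, and after the correction the correlations of all 7 contrasts lay between −0.0041 and 0.019. The correction removes the trend over much the same genes, so values near 0 follow from it and test nothing.

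**Figure D4:**
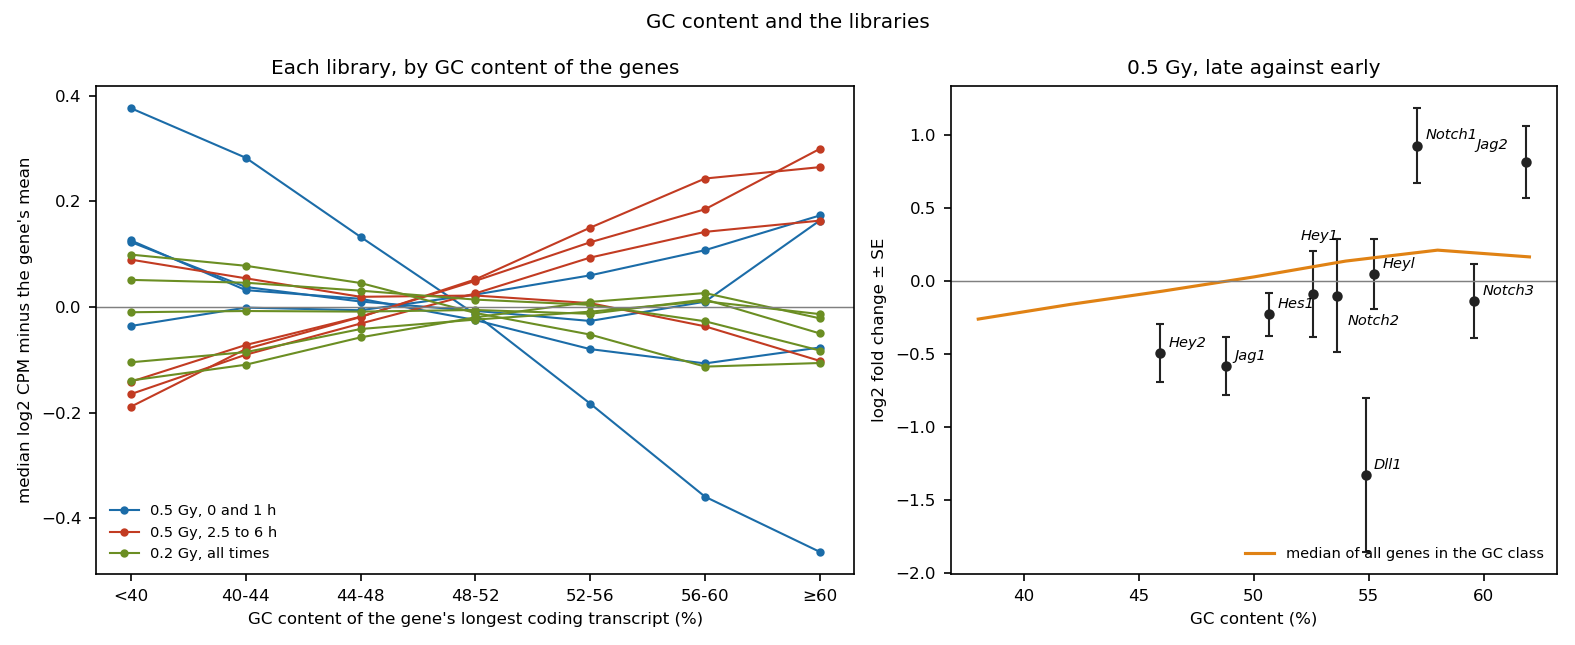
Left, the median deviation of log2 CPM from each gene's mean (vertical axis) in 7 classes of GC content, with 1 line per library, blue for 0 and 1 h and red for 2.5 to 6 h at 0.5 Gy, green for 0.2 Gy. Replicate 2 of 0 h at 0.5 Gy runs from 0.38 to −0.46. Right, the late against early log2 fold change at 0.5 Gy with SE of each of the 10 genes against its GC content, with the median of all genes in each class as a line, where Jag2 and Notch1 lie above the line and Jag1, Hey2 and Dll1 below it.

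The 0.2 Gy series asked a similar question of a lower dose, with the 4 and 6 h libraries against those of 0 and 1 h. Unlike the main 0.5 Gy comparison it left out 2.5 h, and the model was fitted to 11 libraries, those of either dose except 2.5 h. In edgeR's quasi-likelihood test 0 of 10 genes were called, against 13 of 28162 genes, or 0.0462%, and 0 members passed an unadjusted p under 0.05. DESeq2 and limma also called 0 members. The widest difference was that of Dll1, 1.07 (SE 0.72, adjusted p = 0.767), on 16 to 53 reads. The other differences lay between −0.40 for Heyl and 0.37 for Hey2. The values for Jag1 (0.13, SE 0.26) and Jag2 (0.15, SE 0.36) were smaller than their errors, and Notch1 stood at −0.33 (SE 0.33). Dll1 and Hey1 were higher in both late libraries than in both early ones, as 15.6% of all genes were, and Notch1 and Heyl lower, as 30.2% of all genes were. Mdm2, which encodes the ubiquitin ligase that restrains p53, had a log2 fold change of 2.13 (SE 0.34, edgeR adjusted p = 0.0639) in the same fit. Cdkn1a was at 1.45 (SE 0.52, edgeR adjusted p = 0.638) and Ccng1, a further p53 target, at 1.30 (SE 0.29, edgeR adjusted p = 0.273). None of these checks of the response was called at 0.2 Gy, so the lack of a called member there does not show that none changed.

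The difference between the doses was tested as the late against early change of 0.2 Gy minus that of 0.5 Gy, in which dose and generation cannot be told apart. In this test 0 of 10 members were called, against 9 of 28162 genes, or 0.032%. At an unadjusted p under 0.05 there were 4 members, 1 lower and 3 higher, against 8.14% of all genes. Notch1 differed by −1.36 (SE 0.42, unadjusted p = 0.00686, edgeR adjusted p = 0.525), and by −1.08 after the GC correction. In the 4 and 6 h libraries of this fit Notch1 was at 23.4, 25.7 and 33.6 CPM at 0.5 Gy. At 0.2 Gy these libraries averaged 12.8 ± 0.538 CPM (SD, n = 2). The early means were 13.3 CPM at 0.5 Gy and 16.9 CPM at 0.2 Gy. The differences of Dll1 (2.51, SE 0.91), Hey2 (0.91, SE 0.39) and Jag1 (0.77, SE 0.33) were positive, with edgeR adjusted p of 0.564, 0.596 and 0.596. For Jag2 the value was −0.65 (SE 0.46), and −0.30 after the GC correction. The 2.5 h libraries were left out of this fit, since the study groups the 2.5 h library of 0.2 Gy with the early and that of 0.5 Gy with the late time points.

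Of the other genes of the pathway, 43 were listed and 42 tested late against early at 0.5 Gy. None was called, 27 were higher and 15 lower, and the median log2 fold change was 0.08, against −0.02 for all genes. At an unadjusted p under 0.05 there were 7, all higher, and 4 with the GC correction, against 9.06% of all genes without it. Among those with the smallest p were Rfng, a sugar transferase that modifies the receptors (0.68, SE 0.25), and Dtx2, an E3 ubiquitin ligase of the Deltex family (0.66, SE 0.25), each with an edgeR adjusted p of 0.469. Dtx2 was measured at 24.0 and 14.6 CPM at 0 h, 19.3 and 27.6 CPM at 1 h, 44.2 CPM at 2.5 h, 23.5 and 36.1 CPM at 4 h and 31.6 CPM at 6 h. The 4 h library of the first generation lay within the early range, and the 3 late libraries of the second generation above it, an order that 14.4% of all genes showed within that generation. Against 0 h, in comparisons that share those libraries, the smallest p included those of Dtx4 at 1 h, Dtx2 and Dlk1 at 2.5 h, Mib2 and Dll4 at 4 h, and Dlk1 at 6 h.

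At 0.2 Gy 0 of 43 pathway genes were called, 26 were higher and 17 lower, and 3 had an unadjusted p under 0.05, all higher, against 2054 of 28162 genes, or 7.29%, a share close to that of the list. These were Maml3, a coactivator of the nuclear Notch complex (0.99, SE 0.35), and the ubiquitin ligase genes Fbxw7 (0.53, SE 0.19), whose protein marks the active receptor part for degradation, and Itch (0.61, SE 0.22). In the difference between doses 0 of 43 were called. The smallest p belonged to Dtx2 (−1.08, SE 0.42), Pofut1 (0.70, SE 0.36) and Dll4 (−1.62, SE 0.85), of which Dtx2 alone was under 0.05. The remaining receptor, Notch4, ranged from 0.816 to 3.41 CPM over the 13 libraries, the Delta ligand Dll4 from 0.544 to 4.67 CPM, and Rbpj, which carries the DNA-binding protein of the pathway, from 78.2 to 112 CPM.

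The genes most like Jag1, Jag2 and Notch2 were taken by Pearson's r of log2 CPM over the 13 libraries, among 11645 protein-coding genes with a mean of at least 5 CPM. The 13 points share their doses, times and generations, and r is given as a description. Nearest to Jag1 were Chmp5 (r = 0.881), Trim13 (0.855), Chchd3 (0.852), Haus6 (0.848) and Zfp74 (0.831), with GC contents from 41.3% to 48.0%. Nearest to Jag2 were Zfp335 (0.906), Glb1l2 (0.905), Ctnnbl1 (0.905), Trabd (0.899) and Cpt1c (0.890), from 48.3% to 59.4% GC. Nearest to Notch2 were Fer (0.941), Tcf20 (0.940), Hsf2 (0.938), Spry2 (0.937) and Slc39a1 (0.919). Over all pairs of members, r was highest for Jag2 and Notch1 (0.741) and Notch2 and Heyl (0.689), and lowest for Jag1 and Notch1 (−0.844). Next came Dll1 and Hey1 at 0.648 and, among the negative values, Dll1 and Notch1 at −0.637. These are the extremes of the pairs, on log2 CPM without the GC correction.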

How the data were processed

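RNA of isolated oocytes was reverse transcribed with the SMARTER kit, amplified and sequenced as 30-base reads, and the study and the series text differ on whether reads were paired. The authors computed the estimated counts and the TPM per transcript with Salmon on Ensembl transcripts, and deposited both without normalization or filter. The log2 fold changes, p-values, base means and Wald scores that the authors deposited from DESeq2 1.24.0 were not used.

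Estimated counts were summed per GENCODE gene (GRCm38), rounded, and 402 transcripts without a gene, holding at most 0.495% of the reads of a library, were left out. TMM, filterByExpr and quasi-likelihood tests came from edgeR 4.0.16, with limma 3.58.1 and DESeq2 1.42.0 as alternatives (R 4.3.3; Python 3.11.15, pandas 2.3.3 and numpy 2.4.6), and Benjamini-Hochberg adjustment ran over all genes tested. Log2 CPM used a prior count of 2. SE was the absolute log2 fold change divided by the square root of F. The GC correction, added after seeing the data, used a smooth of each library over the GC content of genes with a mean log2 CPM of at least 3 as an offset. Steps were tested on simulated counts.

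The members, gene lists and markers were chosen with earlier results of these data known. All 10 members are named. Of the other pathway genes those called, or the 3 with the smallest p in each comparison, are named, as are the 5 genes most like Jag1, Jag2 and Notch2. Results of some genes that this rule names are not reported here. Replicate numbers at 0, 1 and 4 h mark a generation in the labels, while the 2.5 and 6 h libraries of the higher dose belong to the second. The replicate differences correlated at 0.341 between 0 and 1 h, 0.186 between 0 and 4 h and 0.355 between 1 and 4 h, over 11281 genes. Samples were paired by generation only in the fits with a block, which were alternatives. The main fits had no block and did not use this pairing. Replicates differed beyond sampling noise. The labels do not state whether replicates were separate cultures, so the p-values measure the spread between libraries only. Alternatives covered normalization, filter, scale, tests, time points, block and single libraries.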

Additional observations from a re-analysis of the deposited data

How the results depend on the processing

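No member was called in any of 76 alternatives of the 4 comparisons, and 1187 of 1249 member values kept their direction. Of the 40 differences of members at a time point against 0 h, 19 kept it in every alternative and 21 did not. Without replicate 2 of 0 h, for example, Dll1 went from −0.61 to 0.69 at 2.5 h and from −0.70 to 0.59 at 4 h, and at 4 h Hey1 went from −0.12 to 0.65 and Notch2 from −0.22 to 0.74. DESeq2 gave Notch1 the lowest adjusted p, 0.0363 late against early at 0.5 Gy with a fold change under the threshold, within a range from 0.0363 to 0.974 over its alternatives. The block for the generation changed no call of a member.

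Counts over the 4 time points are sums of the calls at each, in which a gene can recur. Over all genes the main fits called 29 genes late against early at 0.5 Gy, 0 over the 4 time points, 13 at 0.2 Gy and 9 between doses. In this order, DESeq2 called 203, 378, 135 and 114 and no filter 58, 244, 32 and 22. Limma called 6, 33 and 16 in the last 3, and summed TPM 0, 7 and 5 in the first, the third and the last. The replicate block gave 18 and 14 in the first 2, and 23 over the time points with the GC correction. Late against early at 0.5 Gy gave 14 without 2.5 h, 0 in the first generation, 11 in the second and 18 there with the GC correction. The 0.2 Gy libraries alone gave 2, and 2.5 h as early gave 0. Leaving out 1 library gave 10 to 37 late against early at 0.5 Gy (10 without replicate 1 of 0 h, replicate 2 of 4 h or the 6 h library, 12 without replicate 2 of 0 h, 14 without 2.5 h), 0 to 27 over the time points (27 without replicate 1 of 0 h), 1 to 18 at 0.2 Gy (1 without its 1 h and 4 without its 0 h library, 7 or 8 without replicate 2 of 0, 1 or 4 h of 0.5 Gy) and 0 to 13 between doses (0 without 0 h of 0.2 Gy, 1 or 2 without its 1 h library or, of 0.5 Gy, replicate 2 of 0 or 1 h, either of 4 h or the 6 h library, 5 without replicate 1 of 1 h). The cause was not tested.

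On summed TPM the direction of Notch1 turned, from 0.93 to −0.15 late against early, from 1.06 to −0.24 at 4 h and from 1.49 to −0.078 at 6 h. The other turns late against early and between doses were of differences of at most 0.37 in size. Hes1 was 0.027 in the first generation. Heyl was −0.13 with the GC correction, −0.063 with the block, −0.22 with both, −0.15 in the second generation and −0.39 there with the GC correction. At 0.2 Gy Notch3 was −0.034 with 2.5 h as early, −0.0056 in limma and −0.029 on summed TPM. Without 1 library the late difference of 0.5 Gy ran from −0.35 to 0.17 for Notch2, −0.26 to 0.0028 for Notch3, −0.33 to 0.095 for Hey1 and −0.10 to 0.18 for Heyl, and that of 0.2 Gy from −0.0059 to 0.26 for Jag1, −0.22 to 0.45 for Jag2, −0.24 to 0.22 for Notch3 and −0.052 to 0.70 for Hey2. The dose difference of Notch3 ran from −0.13 to 0.32. Depth limits Dll1 most, with 13 to 94 reads per library.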
